A study of Mus musculus with 70 samples.

Results

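Basal progenitors (BP) of the mouse dorsal cerebral cortex were compared between embryonic days E18.5 and E16.5, the last days of neuron production before birth. The comparison rests on 6 of 70 libraries, 3 per stage, chosen by their labels for cell type and stage. The 2 libraries of the stage between, E17.5, served only as a check on direction. Of 23078 genes in the deposited table, 13513 had a mean of at least 1 TPM at E16.5 or E18.5 and were tested. TPM is a transcript abundance corrected for transcript length, whose sum over all transcripts is fixed in every library.

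The series measured RNA in neural stem cells (NSC), basal progenitors and newborn neurons (NBN) at daily stages up to postnatal day 1, called PN here. All BP and NBN libraries came from wild-type C57Bl/6 embryos or pups carrying Tbr2::GFP, and the NSC libraries from the same strain carrying Hes5::GFP; the labels name no treatment. Dorsal cortex was dissected, dissociated with papain, and cells positive for the green fluorescent protein were sorted. The sources used here do not say how BP were set apart from NBN in this reporter line, and the reporter protein can outlast the transcription of its gene, which limits the sort as a model of progenitors alone. The tissue label is forebrain and the sex label female for every library used. Nothing in the labels names replicates as separate animals. The p-values rest on a spread between libraries that is shared over all 70, and that may be technical in part.

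Basal progenitors, also called intermediate progenitors, arise from radial glia, leave the ventricular surface and divide in the subventricular zone, mostly to give pairs of excitatory neurons. They are marked by the transcription factor Tbr2 (gene Eomes), and follow a cascade in which Notch signalling is released and proneural bHLH factors such as Neurog2, Neurog1 and Neurod4 come on. Late in gestation the cortical germinal zones make upper-layer neurons and begin to make glia, while the adjoining hippocampal primordium starts to produce dentate granule neurons.

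Eomes stood at 715, 501 and 516 TPM in the E16.5 libraries, 407 and 432 TPM at E17.5, and 310, 357 and 321 TPM at E18.5. Hes5, a Notch target that marks stem cells, stood between 2.33 and 5.22 TPM in these 8 libraries, against 72.4 ± 20.1 TPM in NSC at E16.5 (SD, n = 4) and 336 ± 26.7 TPM at E18.5 (n = 3). Eomes alone did not set the cell types apart, since NSC libraries held 397 ± 188 TPM at E16.5 and 238 ± 32 TPM at E18.5, while NBN libraries held 36.4 ± 11 and 8.18 ± 2.05 TPM. Each of the 8 BP libraries resembled a library of its own group most (lowest Pearson r of log2 values 0.989, across genes), and no pair held identical values. The lowest of these correlations belonged to E16.5 replicate 1, which also had the most Eomes. The libraries listed 16601 to 17332 genes above 0 at E16.5 and E18.5 and more, 17777 and 18156, at E17.5; the sequencing depth cannot be read from TPM.

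Some libraries went against their label of sex. E18.5 replicates 1 and 2 held 94.7 and 108 TPM of RNA from 4 Y-linked genes, with the X-inactivation RNA Xist at 15.4 and 3.07 TPM. E17.5 replicate 2 was alike, with 168 TPM Y-linked and 16.6 TPM Xist. The E16.5 libraries held 0.288 to 0.401 TPM Y-linked and 198 to 351 TPM Xist, and E18.5 replicate 3 held 7.29 and 250. Sex transcripts thus differed with stage in these 6 libraries, so each result is given as measured and, where the call changes, without E18.5 replicates 1 and 2; that fit leaves 1 library at E18.5, assumed to vary like the other groups.

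Between E16.5 and E18.5, 181 genes rose (1.34% of those tested) and 63 fell (0.466%), 1.81% in all. A gene was called risen or fallen at a limma adjusted p under 0.05 (Benjamini-Hochberg over 13513 genes) and a difference of at least 1 in log2(TPM + 1), which is about a doubling for abundant genes and understates the change of genes of few TPM. The median size among called genes was 1.19 for rises (2.28-fold on this scale) and 1.16 for falls (2.23-fold). Without a minimum size, 1308 genes were higher (9.68%) and 776 lower (5.74%). The median difference of all genes tested was 0.00. In 239 of the 244 called genes the 3 libraries of each stage did not overlap; over all genes tested, 19.6% did not overlap with E18.5 higher and 17.1% with E18.5 lower.

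Of the called genes, 138 of 181 that rose and 30 of 63 that fell stayed under 20 TPM at both stages. A gene that passed the filter of 1 TPM through 1 stage alone can only have been higher there; this holds for 44 of the rises and 5 of the falls, and for 370 and 219 of all genes tested. With a pseudocount of 5 TPM in place of 1, which damps such genes, 32 rose and 24 fell. Without E18.5 replicates 1 and 2, 181 rose and 52 fell, and 171 of the 244 genes were called in both fits. With the Y-linked RNA level as a term in the model, 169 rose and 76 fell, and 213 of the 244 were called again. Among the genes named below, Cck, Cdkn1a, Crabp1, Dok5, Etv5, Gria1 and Gucy1a3 lost the call with this term. Leaving out E16.5 replicate 1 gave 158 rises and 83 falls, with 188 of the 244 genes among them.

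The 12 largest rises and 12 largest falls were taken among genes above 20 TPM on the higher side. This naming rule also required E16.5 and E18.5 libraries that do not overlap and an E17.5 mean on the E18.5 side. That the stages separate in these 24 genes therefore follows from the choice. Those that rose were Calb2, Fos, Grp, Egr1, Kcnk1, Lsamp, Lingo1, B2m, Prox1, Tspan4, Stac2 and Fabp3. Those that fell were St18, Igf2bp2, Siah3, Hey1, Gpc4, Grb10, Abracl, Slc30a10, Gli2, Iqsec1, Rhbdl3 and Boc. All 24 kept their call with each of the 6 libraries left out in turn, and 23 kept it without E18.5 replicates 1 and 2. The exception was Stac2, at 1.37, limma adjusted p = 0.0925 there.

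**Figure D1:**
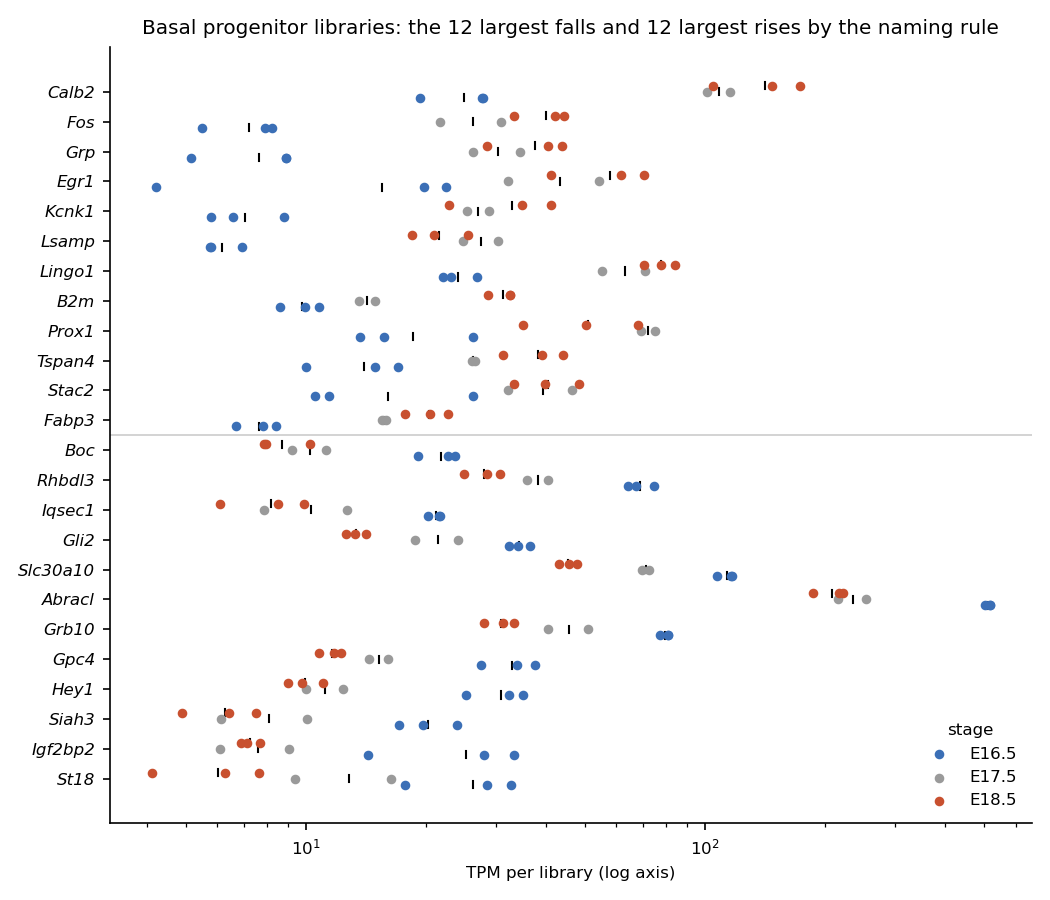
TPM in each BP library (log axis) for the 12 largest rises and 12 largest falls; points are libraries coloured by stage and black bars are stage means (n = 3 at E16.5 and E18.5, 2 at E17.5). For every gene the E16.5 and E18.5 points do not overlap and the E17.5 mean lies on the E18.5 side. The naming rule requires both.

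Of 20 genes listed for basal progenitors, 3 fell, Neurog1, Nhlh1 and Neurod4, and none rose. All 20 had a difference below 0, with a median of -0.47, and 9 had a limma adjusted p under 0.05 with no minimum size. Over all genes tested, 1.34% rose, 0.466% fell and the median lay near 0. With no minimum size, 9.68% were higher and 5.74% lower. These shares apply beside every list count that follows. Neurog1, a proneural bHLH factor (GRCm38 chr13:56250478-56252163), was at 6.63, 11.1 and 10.0 TPM at E16.5 and 1.22, 1.12 and 1.34 TPM at E18.5. The lowest E16.5 library held several times the highest E18.5 library, and the difference was -2.18 ± 0.25 (SE; limma adjusted p = 8.42e-09). Nhlh1, a bHLH factor of newly formed neural precursors, was at 137, 131 and 140 TPM at E16.5 and 69.1, 47.9 and 69.5 TPM at E18.5, a difference of -1.14 ± 0.17 (limma adjusted p = 3.29e-06). Neurod4, which acts after the neurogenins, was at 41.2, 28.3 and 30.3 TPM at E16.5 and 13.7, 14.7 and 15.8 TPM at E18.5, a difference of -1.10 ± 0.22 (limma adjusted p = 3.54e-04). In none of these did the stages overlap.

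Only Neurog1 was called under every library left out. Nhlh1 missed the minimum without E18.5 replicate 2 (-0.96) and without both E18.5 replicates 1 and 2 (-0.96). Neurod4 missed it without E16.5 replicate 1 (-0.95) and missed the adjusted p without E18.5 replicates 1 and 2 (-1.01, limma adjusted p = 0.0646). Eomes itself (-0.79 ± 0.24) and Neurog2, the upstream proneural factor (336, 265 and 268 TPM at E16.5 and 168, 176 and 157 TPM at E18.5, -0.79 ± 0.21), had limma adjusted p of 0.0191 and 0.00553 but did not reach the minimum. Insm1, a zinc-finger factor of delaminating progenitors, stood at a mean of 309 TPM at E16.5 and 304 TPM at E18.5 (-0.03), and Neurod1, at the end of the cascade, at a mean of 230 TPM at E16.5 and 208 TPM at E18.5 (-0.14). In bulk RNA, fewer cells of a kind and less RNA per cell cannot be told apart.

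Genes of the cell cycle showed no called change but for the inhibitor Cdkn1a. None of 28 mitosis genes was called (median -0.20, with 27 of 28 below 0), and none of 26 DNA replication genes (median -0.13). An adjusted p under 0.05 by limma, with no minimum size, was reached by none of the mitosis genes, by 4 of the DNA replication genes (Fen1, Gins2, Gmnn and Mcm2) and by 4 of 20 G1 cyclins, kinases and inhibitors (Ccnd2, Cdk4, Cdkn1a and Rb1), all 8 lower at E18.5. Top2a, which untangles chromosomes before mitosis, stood at a mean of 62.4 TPM at E16.5 and 42.4 TPM at E18.5 (-0.51), Mki67 at a mean of 23.8 TPM at E16.5 and 19.97 TPM at E18.5 (-0.21) and the replication clamp Pcna at a mean of 113 TPM at E16.5 and 116 TPM at E18.5 (0.05). The median of the mitosis list ranged from -0.33 to 0.03 when 1 library was left out. It was 0.03 without E16.5 replicate 1, and the DNA replication median was 0.01 without that library. Summed over the mitosis list, that library held 937 TPM and the other E16.5 libraries 526 and 528 TPM. The E18.5 sums were 497 to 622 TPM. Of 20 G1 cyclins, kinases and inhibitors, Cdkn1a was the 1 called, at 12.2, 15.53 and 14.7 TPM at E16.5 and 8.13, 5.25 and 6.40 TPM at E18.5 (-1.004 ± 0.21, limma adjusted p = 5.31e-04). It missed the minimum without E16.5 replicate 2 (-0.94) or 3 (-0.98), without E18.5 replicate 2 (-0.87) or 3 (-0.99), and with the Y-linked term (-0.94).

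In the Notch pathway, 2 genes that Notch induces fell and no ligand or receptor was called. Of 20 members, these 2 fell and none rose (median -0.18). With no minimum size, 9 of the 20 had a limma adjusted p under 0.05. Hey1, a bHLH repressor induced by Notch, was at 25.2, 34.9 and 32.3 TPM at E16.5 and 11.1, 9.03 and 9.77 TPM at E18.5, with 10.0 and 12.4 TPM at E17.5. All 5 later libraries lay below all 3 earlier ones, which the naming rule in part required, and the fall was -1.53 ± 0.14 (limma adjusted p = 1.36e-11). Nrarp, a Notch-induced inhibitor of the pathway whose exons overlap an antisense gene, was at 38.5, 30.7 and 28.5 TPM at E16.5 and 15.4, 17.6 and 14.03 TPM at E18.5 (-1.01 ± 0.18, limma adjusted p = 7.50e-05). Nrarp sat at the minimum and missed it without E16.5 replicate 1 (-0.88), E18.5 replicate 1 (-0.996) or E18.5 replicate 3 (-0.93). The ligand Dll1 stood at a mean of 34.3 TPM at E16.5 and 20.2 TPM at E18.5 (-0.70), the receptor Notch1 at a mean of 35.9 TPM at E16.5 and 21.7 TPM at E18.5 (-0.68), the glycosyltransferase Mfng at a mean of 200 TPM at E16.5 and 130 TPM at E18.5 (-0.61), and Hes6, which opposes Hes1, at a mean of 224 TPM at E16.5 and 213 TPM at E18.5 (-0.07).

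Of 24 Wnt pathway genes, the receptor Fzd9 fell and none rose (median -0.28). With no minimum size, 11 of the 24 had a limma adjusted p under 0.05. Fzd9 was at 9.69, 11.9 and 10.3 TPM at E16.5 and 4.78, 3.25 and 2.83 TPM at E18.5, without overlap (-1.35 ± 0.23, limma adjusted p = 2.62e-05). The receptors Fzd1 (-0.80) and Fzd8 (-0.89) and the nuclear effector Lef1 (-0.77) were not called. Among the falls of the naming rule, Gli2, a transcription factor of the Hedgehog pathway, was at 36.5, 33.9 and 32.3 TPM at E16.5 and 12.6, 14.1 and 13.3 TPM at E18.5 (-1.30 ± 0.23, limma adjusted p = 4.28e-05). Boc, a cell-surface co-receptor for Hedgehog ligands, was at 19.1, 23.6 and 22.7 TPM at E16.5 and 7.87, 10.3 and 7.95 TPM at E18.5 (-1.24 ± 0.17, limma adjusted p = 4.74e-07). Gpc4, a glypican that carries heparan sulfate and binds growth factors, was at 27.4, 33.8 and 37.5 TPM at E16.5 and 11.7, 12.3 and 10.8 TPM at E18.5 (-1.42 ± 0.16). For Gli2, Boc and Gpc4 the highest E18.5 library lay well under the lowest E16.5 library, where the naming rule already required no overlap.

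Of 7 genes listed for developmental timing that passed the filter, Igf2bp2 and Igf2bp3 fell, none rose, and all 7 were below 0 (median -0.89). Both encode RNA-binding proteins of the Igf2bp family, which are abundant in early embryonic tissue. Igf2bp2 was at 14.3, 33.3 and 27.9 TPM at E16.5 and 7.11, 7.67 and 6.89 TPM at E18.5, with 6.10 and 9.06 TPM at E17.5 (-1.59 ± 0.18, limma adjusted p = 2.68e-09). Igf2bp3, whose exons overlap the antisense gene Malsu1, was at 15.7, 19.98 and 19.2 TPM at E16.5 and 8.05, 7.80 and 8.43 TPM at E18.5 (-1.08 ± 0.13, limma adjusted p = 2.38e-08). Igf2bp1 was at -0.93 and was not called. Hmga1, a chromatin protein that declines with stem-cell age, stood at a mean of 136 TPM at E16.5 and 106 TPM at E18.5 (-0.35).

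The gene with the largest fall by the naming rule was St18, a zinc-finger transcription factor of the Myt family. It was at 17.7, 32.7 and 28.4 TPM at E16.5 and 6.28, 4.11 and 7.65 TPM at E18.5, with 9.38 and 16.3 TPM at E17.5 (-1.95 ± 0.26, limma adjusted p = 2.20e-07). Abracl, a small protein linked to actin, was the most abundant of those that fell. Its E16.5 libraries held 518, 517 and 503 TPM and its E18.5 libraries 216, 222 and 187 TPM (-1.30 ± 0.14, limma adjusted p = 1.05e-09). The 3 E16.5 values lay within 15 TPM of each other, and the E17.5 libraries, at 216 and 253 TPM, were already near the E18.5 level. Grb10, an imprinted adaptor of the insulin receptor, fell by 1.34 from a mean of 79.5 to 30.8 TPM. Slc30a10, a manganese exporter that overlaps an antisense gene, fell by 1.30 from 113 to 45.5 TPM. The remaining falls by the rule were Siah3 of the Siah family (-1.55), Iqsec1, an exchange factor for Arf GTPases with an antisense neighbour (-1.30), and Rhbdl3, a rhomboid-family membrane protein (-1.27).

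Calb2 had the largest rise by the naming rule. It encodes calretinin, a calcium-binding protein of several immature neuron types including young dentate granule cells (GRCm38 chr8:110137502-110168210). It was at 19.3, 27.8 and 27.6 TPM at E16.5 and 173, 104.9 and 147 TPM at E18.5, with 101 and 115.5 TPM at E17.5. Every E17.5 and E18.5 library held several times the highest E16.5 library, where the naming rule already required no overlap of E16.5 and E18.5. The difference was 2.45 ± 0.26 (limma adjusted p = 1.38e-09). Prox1, the homeobox factor that specifies dentate granule cells and whose exons overlap an antisense gene, was at 26.2, 13.7 and 15.7 TPM at E16.5 and 50.3, 34.9 and 67.8 TPM at E18.5, with a higher 69.2 and 74.8 TPM at E17.5 (1.42 ± 0.27, limma adjusted p = 1.74e-04). Its highest E16.5 library and lowest E18.5 library were close, and the stages did not overlap.

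Of 13 dentate gyrus and hippocampal genes, 3 rose, Calb2 and Prox1 among them, and none fell (median 0.24). Zbtb20, a factor of hippocampal field identity, was at 71.4, 69 and 64.7 TPM at E16.5, 272 and 246 TPM at E17.5, and 84.9, 66.6 and 126 TPM at E18.5. The 2 E17.5 libraries stood above all others, the outer stages overlapped, and Zbtb20 was not called (0.38). Lhx9 (-0.93), Emx1 (-0.57) and Emx2 (0.22) were not called. How much adjoining hippocampal primordium each dissection held is not recorded, and its part in these values was not tested.

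Grp, gastrin-releasing peptide, was at 8.90, 5.14 and 8.90 TPM at E16.5 and 43.7, 28.5 and 40.5 TPM at E18.5 (2.17 ± 0.34, limma adjusted p = 6.75e-06), without overlap. Of 15 neuropeptide and receptor genes, 4 rose and none fell (median 0.43). Of the 15, 2 passed the filter through E18.5 alone, Gal among them, and could only be higher there. The rises other than Grp were of few TPM. Npy was at 2.47, 1.26 and 0.755 TPM at E16.5 and 7.66, 7.32 and 7.27 TPM at E18.5 (1.81 ± 0.49, limma adjusted p = 0.00794), but only 0.461 and 0.709 TPM at E17.5, below each E16.5 library. Gal, encoding galanin, was at 0.281, 0.250 and 0 TPM at E16.5 and 2.47, 2.04 and 2.00 TPM at E18.5 (1.43 ± 0.28). Cck, encoding cholecystokinin, was at 2.63, 8.58 and 12.8 TPM at E16.5 and 18.8, 19.4 and 13.9 TPM at E18.5 (1.21 ± 0.40, limma adjusted p = 0.0309). Cck was not called without E16.5 replicate 1 (0.66, limma adjusted p = 0.328), E18.5 replicate 1 (1.15, limma adjusted p = 0.103), E18.5 replicate 2 (1.13, limma adjusted p = 0.0969) or both of the latter (0.93, limma adjusted p = 0.483). Npy was not called without E16.5 replicate 3 (1.59, limma adjusted p = 0.0516) or without E18.5 replicates 1 and 2 (1.79, limma adjusted p = 0.171).

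Of the other rises by the naming rule, Kcnk1, a background potassium channel whose exons overlap an antisense gene, was at 8.81, 5.77 and 6.56 TPM at E16.5 and 34.8, 22.9 and 41.0 TPM at E18.5 (2.05 ± 0.19, limma adjusted p = 1.84e-11). It was the 1 called of 25 ion channel genes (median 0.25). Lsamp, an adhesion molecule of the limbic system, was at 5.74, 5.78 and 6.91 TPM at E16.5 and 20.9, 18.47 and 25.5 TPM at E18.5 (1.65 ± 0.18, limma adjusted p = 1.69e-09). Lingo1, a leucine-rich repeat protein of the Nogo receptor complex, was at 26.9, 22.1 and 23.04 TPM at E16.5 and 84.0, 70.5 and 77.7 TPM at E18.5 (1.65 ± 0.22, limma adjusted p = 2.02e-07). In all 3 genes every E17.5 and E18.5 library stood far above the highest E16.5 library. The naming rule itself required that the E16.5 and E18.5 libraries do not overlap and that the E17.5 mean lie on the E18.5 side. Tspan4, a tetraspanin overlapping the antisense gene Chid1, rose by 1.40. Stac2, an adaptor of voltage-gated calcium channels, rose by 1.38, and Fabp3, a fatty acid binding protein, by 1.30. Fabp3 shares sequence with a pseudogene and exons with antisense genes, so its level is uncertain.

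Immediate-early genes are switched on within minutes by neural activity, growth factors or tissue handling. Of 18 that passed the filter, Fos, Egr1 and Fosb rose, none fell, and 16 were above 0 (median 0.32); 4 of the 18, Fosb among them, passed through E18.5 alone. Fos was at 7.88, 5.49 and 8.21 TPM at E16.5 and 33.3, 42.1 and 44.2 TPM at E18.5, with 30.8 and 21.7 TPM at E17.5 (2.32 ± 0.40, limma adjusted p = 3.24e-05). Egr1 was at 4.22, 19.8 and 22.5 TPM at E16.5 and 41.2, 70.5 and 61.4 TPM at E18.5, with 54.2 and 32.2 TPM at E17.5 (2.07 ± 0.45, limma adjusted p = 7.99e-04). E16.5 replicate 1 was the low library for Egr1, and without it the difference was 1.38 and still called. Fosb, at 0.480, 0.475 and 1.25 TPM at E16.5 and 2.38, 4.92 and 3.55 TPM at E18.5 (1.40 ± 0.45), was not called without E16.5 replicate 1 (1.30, limma adjusted p = 0.0805), E16.5 replicate 2 (1.30, limma adjusted p = 0.0852), E18.5 replicate 2 (1.21, limma adjusted p = 0.113), E18.5 replicate 3 (1.40, limma adjusted p = 0.0592) or E18.5 replicates 1 and 2 (1.42, limma adjusted p = 0.249).

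Other genes of the same list were not called. Jun stood at a mean of 32.4 TPM at E16.5 and 61.2 TPM at E18.5 (0.91), Dusp1 at a mean of 55.8 TPM at E16.5 and 69.7 TPM at E18.5 (0.32), Ier2 at a mean of 45.4 TPM at E16.5 and 53.1 TPM at E18.5 (0.23) and the heat-shock gene Hspa1a at a mean of 0.940 TPM at E16.5 and 1.36 TPM at E18.5 (0.29). The labels give no time between dissection and lysis, and its part in the rise of Fos and Egr1 was not tested.

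FGF signals through ERK, which induces its own feedback regulators. Of 13 genes listed for this, Egr1, Dusp6, Etv4 and Etv5 rose and Fgfr3 fell (median 0.67, with 11 above 0). Dusp6, a phosphatase that removes active ERK, was at 1.93, 3.82 and 3.59 TPM at E16.5 and 8.47, 8.59 and 8.38 TPM at E18.5 (1.24 ± 0.20, limma adjusted p = 1.14e-05). Etv5 and Etv4 are ETS-family factors induced by FGF. Etv5 was at 6.82, 7.39 and 9.99 TPM at E16.5 and 16.4, 18.4 and 16.4 TPM at E18.5 (1.01 ± 0.21) and Etv4 at 0.254, 1.28 and 1.62 TPM at E16.5 and 3.37, 3.41 and 3.14 TPM at E18.5 (1.14 ± 0.25). The stages did not overlap in any of the 3 genes. The receptor Fgfr3 went the other way and was at 23.8, 25.5 and 27.0 TPM at E16.5 and 13.4, 10.2 and 11.7 TPM at E18.5 (-1.06 ± 0.20, limma adjusted p = 1.09e-04). Spry2, a feedback inhibitor, stood just under the minimum at 1.00 (a mean of 9.26 TPM at E16.5 and 19.4 TPM at E18.5), and the receptor Fgfr1 at a mean of 117 TPM at E16.5 and 195 TPM at E18.5 (0.72).

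Some of these calls rested on single libraries. Etv4 was not called without E16.5 replicate 1 (0.82) or E18.5 replicates 1 and 2 (1.08, limma adjusted p = 0.0778), nor Fgfr3 without E18.5 replicate 2 (-0.97). Etv5 was not called without E16.5 replicate 1 (0.91) or 2 (0.96), E18.5 replicate 2 (0.96) or both E18.5 replicates 1 and 2 (0.96). It also missed the minimum with the Y-linked term (0.996), with library weights (0.999) and with quantile normalization (0.95).

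Of 18 genes listed for antigen presentation and the interferon response, 14 passed the filter, B2m, Ifitm3, Bst2, Ifi27 and H2-K1 rose and none fell (median 0.53). Bst2, Ifi27, Irf7 and Tap1 passed through E18.5 alone, so the count and the median describe the list and no more. B2m, the light chain of MHC class I, was at 8.61, 10.8 and 9.94 TPM at E16.5 and 32.4, 28.7 and 32.4 TPM at E18.5. The E17.5 libraries, at 14.9 and 13.6 TPM, lay between the stages, and the rise of 1.58 ± 0.16 (limma adjusted p = 2.53e-10) was larger than any spread within a stage. Ifitm3, a membrane protein that blocks virus entry and has close paralogs, was at 1.33, 0.788 and 2.05 TPM at E16.5 and 7.24, 5.19 and 4.203 TPM at E18.5 (1.46 ± 0.24, limma adjusted p = 1.29e-05). H2-K1, a class I heavy chain near-identical to H2-D1, was at 4.06, 2.94 and 4.23 TPM at E16.5 and 8.83, 7.95 and 8.50 TPM at E18.5 (1.00, limma adjusted p = 2.27e-04), and H2-D1 was not called (0.77). Bst2, which tethers budding virions, was at 0.524, 0 and 0.839 TPM at E16.5 and 3.90, 1.36 and 2.07 TPM at E18.5 (1.22 ± 0.28), and Ifi27 at 0.989, 0.245 and 1.01 TPM at E16.5 and 3.76, 1.70 and 3.66 TPM at E18.5 (1.197 ± 0.27).

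The transcription factors Irf7 and Irf9 of the response were not called: Irf7 stood at a mean of 0.578 TPM at E16.5 and 1.16 TPM at E18.5 (0.46) and Irf9 at a mean of 16.7 TPM at E16.5 and 19.5 TPM at E18.5 (0.22). Isg15 stood at a mean of 3.35 TPM at E16.5 and 3.63 TPM at E18.5 (0.08). A further 5 interferon-regulated genes were picked out after their values were seen. Usp18, a protease that damps interferon signalling and overlaps an antisense gene, was at 0.678, 0.101 and 0 TPM at E16.5 and 4.97, 3.51 and 3.13 TPM at E18.5 (1.97 ± 0.12, limma adjusted p = 3.35e-18). Oasl2 was at 0.325, 0.114 and 0.0455 TPM at E16.5 and 4.17, 1.77 and 2.61 TPM at E18.5 (1.69 ± 0.14, limma adjusted p = 7.46e-13). Both genes stood under 1 TPM in every E16.5 library. They passed the filter through E18.5 alone and could only be higher there. The guanosine triphosphatases Irgm1 (1.19) and Igtp (1.05) and the RNA sensor Ddx58 (1.10) rose as well. Igtp and Ddx58 were also of few TPM (0.35 and 0.39 with a pseudocount of 5), and the same limit holds for them. All 5 were picked for their values, so their rises are a description only.

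B2m, Ifitm3, Usp18, Oasl2 and Irgm1 kept their calls with every library left out. H2-K1 missed the minimum without E16.5 replicate 2 (0.87), E18.5 replicate 1 (0.97) or E18.5 replicate 3 (0.99), and with the library scaling by median ratios (0.99) or quantiles (0.90). Ifi27 missed it without E16.5 replicate 2 (0.97). Bst2 was lost without E16.5 replicate 2 (0.97), E18.5 replicate 1 (0.93) or E18.5 replicates 1 and 2 (1.12, limma adjusted p = 0.0830). Ddx58 was lost without E16.5 replicate 2 (0.91) or E18.5 replicate 1 (0.93), and Igtp without E18.5 replicate 1 (0.76) or 3 (0.95).

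Promoter windows of 250 bases before the annotated start were read for the listed genes that rose and for Oasl2, to show whether they hold the core of the interferon-stimulated response element, read as GAAA, any 2 bases, and GAAA again, on either strand. The windows are from RefSeq on GRCm38.p6, and 978 of 32851 windows of this length hold the motif (2.98%). B2m (chr2:122147437-122147686, plus strand) holds 1 match, beginning at base -139 from the start. Bst2 (chr8:71537473-71537722, minus strand) holds 2 overlapping matches, at -130 and -124. The windows of Ifitm3, H2-K1 and Oasl2 hold none; Ifi27 was not matched. The 2 windows with a match are shown 5′ to 3′ on the gene's strand, with the matches in capitals.
B2m: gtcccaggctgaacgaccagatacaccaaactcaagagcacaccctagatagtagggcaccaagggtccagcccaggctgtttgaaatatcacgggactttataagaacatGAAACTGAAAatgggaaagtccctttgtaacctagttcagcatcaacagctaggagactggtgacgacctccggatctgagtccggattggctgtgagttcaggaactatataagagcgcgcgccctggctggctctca
Bst2: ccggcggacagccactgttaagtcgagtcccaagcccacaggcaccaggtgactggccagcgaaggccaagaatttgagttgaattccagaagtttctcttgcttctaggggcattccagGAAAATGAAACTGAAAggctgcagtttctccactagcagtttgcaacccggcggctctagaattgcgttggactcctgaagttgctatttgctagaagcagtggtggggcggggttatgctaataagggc
A match says only that these letters are present in the window.

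Genes of layer identity gave 3 calls. Of 15 deep-layer genes, Sox5 and Fezf2 fell and none rose (median -0.28). Sox5, a factor of subplate and corticofugal neurons overlapping an antisense gene, was at 45.5, 74.8 and 69.4 TPM at E16.5 and 25.0, 28.8 and 27.9 TPM at E18.5 (-1.16 ± 0.25, limma adjusted p = 8.22e-04). Fezf2, which specifies subcerebral projection neurons, was at 74.3, 112 and 102 TPM at E16.5 and 55.7, 34.8 and 52.5 TPM at E18.5 (-1.004 ± 0.20, limma adjusted p = 2.67e-04). Bcl11b (Ctip2), its partner, stood at 38.5, 117 and 98.9 TPM at E16.5 and 39.1, 34.4 and 41.7 TPM at E18.5. E16.5 replicate 1 overlapped the E18.5 range for Bcl11b, which was not called (-0.98), and without that library the difference was -1.46. Tbr1, a factor of corticothalamic neurons, stood at a mean of 238 TPM at E16.5 and 274 TPM at E18.5 (0.20).

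Fezf2 was not called without E16.5 replicate 2 (-0.88) or 3 (-0.95), E18.5 replicate 2 (-0.80), or E18.5 replicates 1 and 2 (-0.84, limma adjusted p = 0.0740); the last also ended the call of Sox5 (-1.12, limma adjusted p = 0.0675). Of 16 upper-layer genes, Dok5, an adaptor of receptor kinases, rose and none fell (median 0.19). Dok5 was at 25.7, 28.6 and 31.3 TPM at E16.5 and 57.4, 56.5 and 61.5 TPM at E18.5 (1.01 ± 0.18, limma adjusted p = 3.45e-05), and missed the minimum without E16.5 replicate 1 (0.94), E18.5 replicate 3 (0.98) or with the Y-linked term (0.89). The upper-layer factors Cux1 (0.18), Cux2 (0.21) and Pou3f2 (0.48) were not called.

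**Figure D2:**
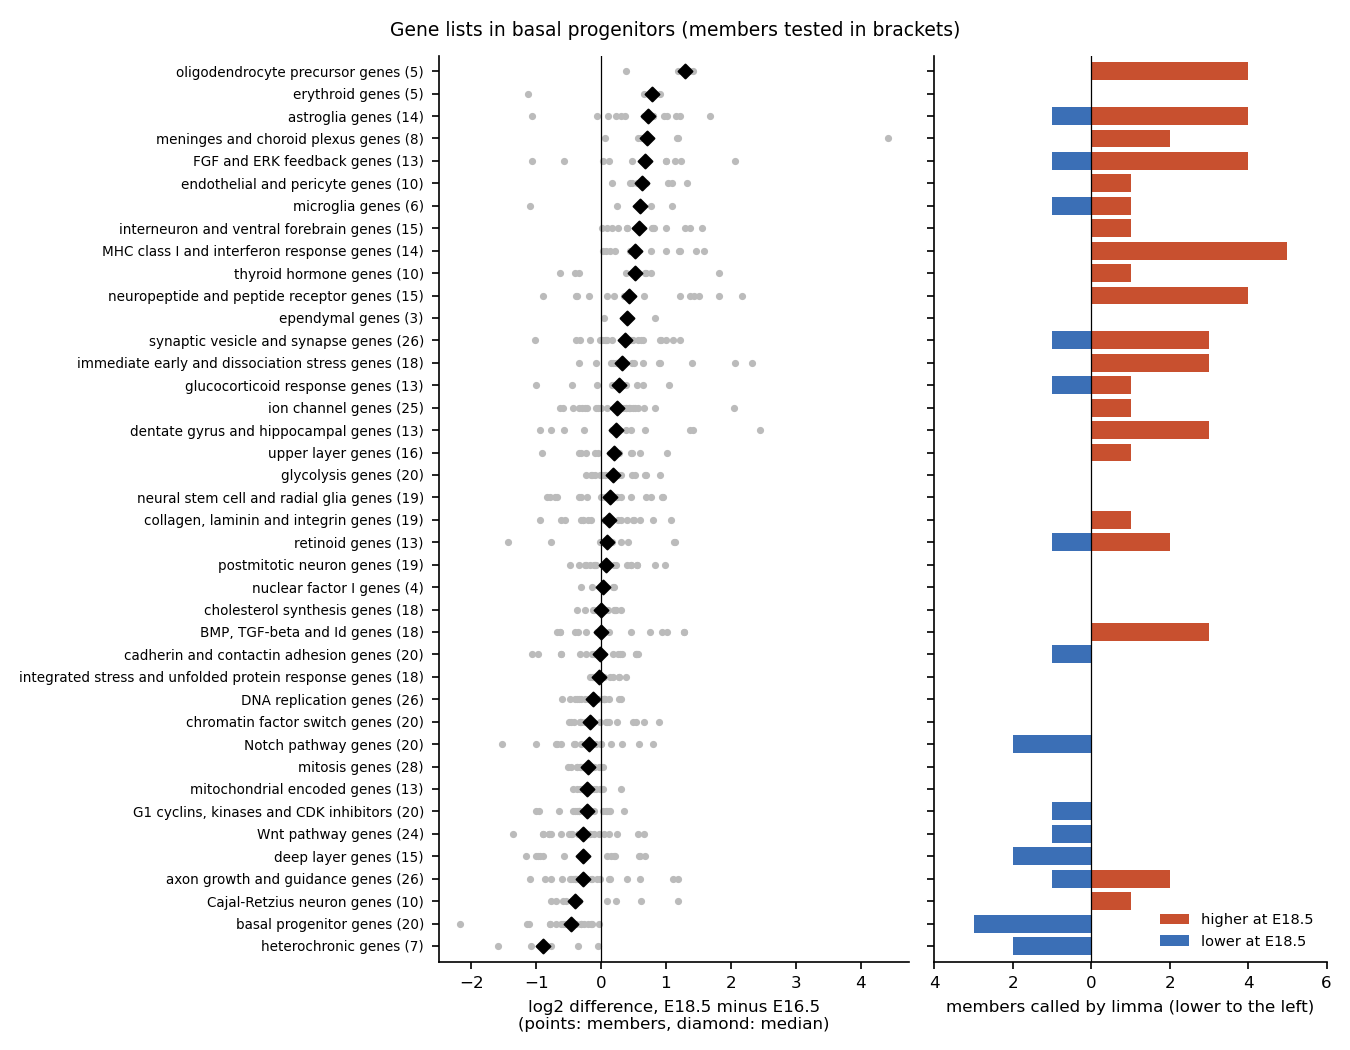
Left, log2 difference in BP (E18.5 minus E16.5) of each tested member of the gene lists, with the list median as a diamond; right, the number of members called higher or lower by limma, with the number tested in brackets. The lists for developmental timing and basal progenitors lie lowest (medians -0.89 and -0.47), and the one for oligodendrocyte precursors highest (1.30, from 5 genes).

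Synapse and axon genes moved in both directions. Of 26 synaptic genes, Grin1, Cplx1 and Gria1 rose and Slc17a7 fell (median 0.38). Grin1, the obligatory NMDA receptor subunit, overlaps an antisense gene and was at 4.67, 5.92 and 6.04 TPM at E16.5 and 15.6, 13.1 and 14.2 TPM at E18.5 (1.22 ± 0.17, limma adjusted p = 5.81e-07). Slc17a7, the vesicular glutamate transporter of cortical neurons, was at 13.3, 30.2 and 24.1 TPM at E16.5 and 12.8, 8.39 and 9.43 TPM at E18.5 (-1.02 ± 0.21). Cplx1, a regulator of vesicle fusion, rose by 1.11 and the AMPA receptor subunit Gria1 by 1.01. Cplx1 was not called without E16.5 replicate 1 (0.91). Gria1 was not called without E16.5 replicate 1 (0.93, limma adjusted p = 0.0516), E18.5 replicate 1 (0.94, limma adjusted p = 0.0587) or 3 (0.89, limma adjusted p = 0.0639), or without E18.5 replicates 1 and 2 (1.25, limma adjusted p = 0.0740). Slc17a7 was not called without E16.5 replicate 2 (-0.78) or 3 (-0.94), or E18.5 replicate 2 (-0.90) or 3 (-0.98).

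Of 26 axon growth and guidance genes, Sema3c and Robo1 rose and Epha3 fell (median -0.28). Sema3c, a secreted semaphorin, was at 212, 181 and 199 TPM at E16.5 and 416, 439 and 496 TPM at E18.5, with a higher 747 and 623 TPM at E17.5 (1.19 ± 0.28, limma adjusted p = 0.00170). Epha3, an ephrin receptor, was at 169, 166 and 170 TPM at E16.5 and 72.0, 84.0 and 80.5 TPM at E18.5 (-1.09 ± 0.15, limma adjusted p = 1.03e-06). Robo1, a receptor for Slit proteins, was at 22.5, 52.0 and 46.2 TPM at E16.5 and 74.6, 85.2 and 89.9 TPM at E18.5 (1.11 ± 0.32). Robo1 was not called without E16.5 replicate 1 (0.75, limma adjusted p = 0.155) or E18.5 replicates 1 and 2 (1.23, limma adjusted p = 0.140). None of 19 postmitotic neuron genes was called (median 0.08), nor any of 19 genes of stem cells and radial glia (median 0.14). With no minimum size, 3 of the postmitotic neuron genes had a limma adjusted p under 0.05. Among the stem cell and radial glia genes 7 did, 3 higher and 4 lower.

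Levels of the marker lists of other cell types went in both directions. The sum over 20 stem cell and radial glia genes was 913 to 1020 TPM at E16.5 and 831 to 885 TPM at E18.5, with no member called. Cajal-Retzius neuron genes summed to 107 to 143 TPM and then 59.1 to 127 TPM, with overlap and a median difference of -0.40 over 10 genes. For the oligodendrocyte lineage, 5 of 12 listed genes passed the filter of 1 TPM and 4 rose: Olig1, Olig2, Sox8 and Cspg5; 3 of the 5 passed through E18.5 alone. Olig1 was at 0.369, 0.492 and 0.787 TPM at E16.5 and 2.43, 3.82 and 3.21 TPM at E18.5 (1.42 ± 0.28, limma adjusted p = 2.20e-04) and Olig2 at 0.739, 0.877 and 0.351 TPM at E16.5 and 2.72, 3.06 and 2.47 TPM at E18.5 (1.19 ± 0.32), without overlap; Olig1 and Sox8 have antisense neighbours. The list's summed level went from 10.9 to 11.9 TPM at E16.5 to 31.1 to 32 TPM at E18.5. The later precursor markers Sox10, Cspg4, Gpr17 and Nkx2-2 were under 1 TPM at both stages. Olig2 missed the adjusted p without E18.5 replicates 1 and 2 (1.08, limma adjusted p = 0.223).

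Of 14 astroglial genes that passed, 4 rose, Gfap, Apoe and Clu among them, and Fgfr3 fell (median 0.73); Aqp4, Agt, S100b and Gjb6 were under 1 TPM at both stages. Gfap, the intermediate filament of astrocytes and radial glia, was at 3.80, 0.877 and 1.46 TPM at E16.5 and 10.1, 6.21 and 8.18 TPM at E18.5 (1.68 ± 0.22, limma adjusted p = 2.63e-07). Apoe, a lipid carrier, was at 25.5, 20.4 and 23.5 TPM at E16.5 and 58.1, 50.7 and 56.7 TPM at E18.5 (1.22 ± 0.26, limma adjusted p = 5.31e-04). The summed level of the list was 493 to 639 TPM at E16.5 and 681 to 705 TPM at E18.5. Clu, at 1.02, was not called without E16.5 replicate 1 (0.97) or E18.5 replicate 1 (0.90). Fgfr3 was not called without E18.5 replicate 2 (-0.97).

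Marker sums were also taken for cells that a cortical sort could carry over. Of the genes that passed the filter, 3 of 8 meningeal and choroid plexus, 4 of 10 endothelial and pericyte, 4 of 6 microglial and 4 of 15 interneuron genes passed through E18.5 alone. Meningeal and choroid plexus genes summed to 9.07, 27.1 and 37.1 TPM at E16.5, 6.93 and 8.88 TPM at E17.5, and 417, 43.1 and 213 TPM at E18.5. Ttr, the transthyretin of choroid plexus, made up most of the sum in the 3 E18.5 libraries but in none of the 5 earlier ones. It was at 0.328, 13.3 and 8.41 TPM, then 0 and 0.782 TPM, then 379, 25 and 176 TPM (4.42 ± 1.05, limma adjusted p = 0.00205). Erythroid genes, which are near-identical globins for the most part, summed to 120 to 211 TPM at E16.5 and 274 to 311 TPM at E18.5, with none of 5 called. Endothelial and pericyte genes summed to 11.2 to 19.6 and then 25.7 to 36 TPM, with Rgs5 called of 10. Microglial genes summed to 6.93 to 7.9 and then 11.2 to 12.7 TPM. Besides those that passed through E18.5 alone, 1 passed through E16.5 alone and could only be lower at E18.5. Of the 6 microglial genes that passed the filter C1qb rose and Tmem119 fell, while Aif1, Cx3cr1, P2ry12, Trem2, Ctss and Fcer1g were under 1 TPM at both stages. Interneuron genes summed to 31.2 to 38 and then 60.9 to 63.6 TPM, with Gad1 called of 15. Ependymal genes summed to 5.74 to 7.25 and then 7.22 to 11.6 TPM, with none of 3 called.

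At E17.5 the meningeal, erythroid, endothelial and microglial sums were at or below the top of the E16.5 range, while those of oligodendrocyte precursors (19.3 and 22 TPM) and interneurons (41.2 and 45.4 TPM) lay between the stages. Most calls in these lists changed with the libraries left out. C1qb was lost without E16.5 replicate 1 (1.01, limma adjusted p = 0.0520), E18.5 replicate 1 (1.05, limma adjusted p = 0.0511) or E18.5 replicate 2 (0.89, limma adjusted p = 0.0875), and Gad1 without E18.5 replicate 1 (1.52, limma adjusted p = 0.0542) or 3 (1.36, limma adjusted p = 0.0774). Rgs5 was lost without E16.5 replicate 1 (0.98) or 2 (0.99) or E18.5 replicate 3 (0.96). Without E18.5 replicates 1 and 2, C1qb (0.58, limma adjusted p = 0.597), Tmem119 (-1.04, limma adjusted p = 0.129), Rgs5 (1.16, limma adjusted p = 0.0868) and Gad1 (1.96, limma adjusted p = 0.0848) were not called. Endothelial cells and microglia also express B2m, H2-K1, Ifitm3 and Bst2, and the part of these cells in the interferon and class I values was not tested.

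**Figure D3:**
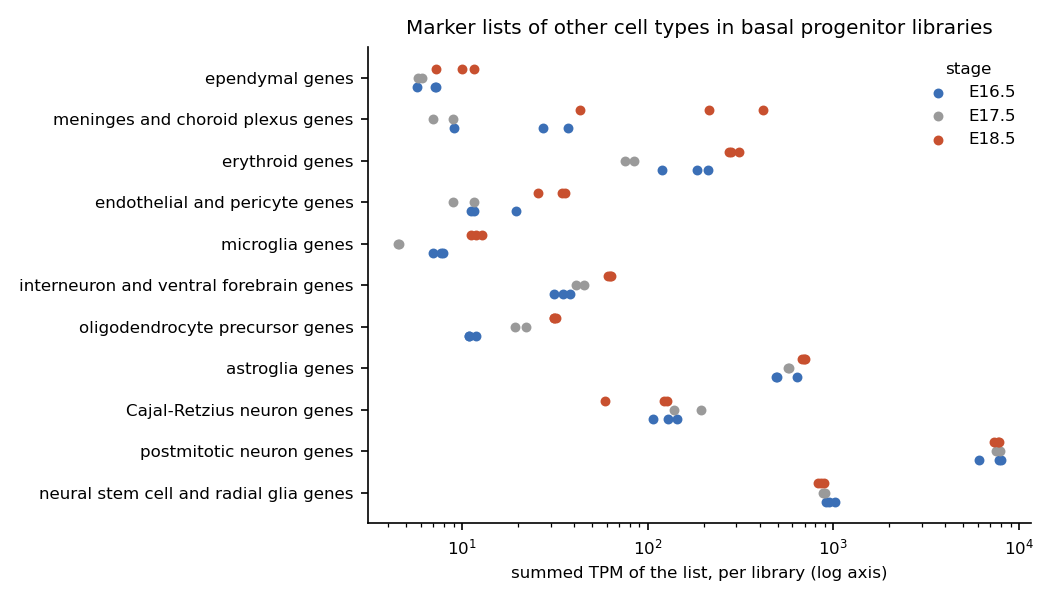
Summed TPM of each marker list of other cell types in the 8 BP libraries (log axis), coloured by stage. Choroid plexus and meningeal genes span 43.1 to 417 TPM at E18.5 and at most 37.1 TPM earlier, while stem cell genes (831 to 1020 TPM) and postmitotic neuron genes (6070 to 7947 TPM) stay within narrow ranges.

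Hormone and morphogen genes gave a few further calls. Slco1c1, a transporter of thyroid hormone, was at 6.49, 2.24 and 2.02 TPM at E16.5 and 12.2, 16.49 and 13.001 TPM at E18.5 (1.82 ± 0.28, limma adjusted p = 6.57e-06), the 1 called of 10 thyroid hormone genes (median 0.52). Of 13 retinoid genes, the nuclear receptors Rarb (1.13; antisense overlap) and Rxrg (1.12) rose and the binding protein Crabp1 (-1.43) fell. Of the 13, 1 passed the filter through E18.5 alone. Crabp1 was at 7.74, 21.3 and 15.7 TPM at E16.5 and 5.06, 3.62 and 4.93 TPM at E18.5. It was not called without E16.5 replicate 2 (-1.14, limma adjusted p = 0.138) or 3 (-1.34, limma adjusted p = 0.0741), E18.5 replicate 2 (-1.31, limma adjusted p = 0.0832), or E18.5 replicates 1 and 2 (-1.32, limma adjusted p = 0.310). Of 18 BMP, TGF-beta and Id genes, the ligand Bmp6 (1.28; antisense overlap) and the bHLH inhibitors Id3 (1.28) and Id1 (1.01) rose, around a median of 0.00. Of the 18, 2 passed the filter through E18.5 alone and 2 through E16.5 alone. Bmp6 missed the minimum without E16.5 replicate 1 (0.99). Id1 missed it without E16.5 replicate 1 (0.95) or 2 (0.97) or E18.5 replicate 1 (0.96), and lost the adjusted p without E18.5 replicates 1 and 2 (1.01, limma adjusted p = 0.151).

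Other lists gave 1 call each in a direction or none. Sgk1, a kinase induced by glucocorticoids, rose (1.05) beside the fall of Cdkn1a among 13 glucocorticoid genes. Sgk1 was lost without E16.5 replicate 2 (1.00), E18.5 replicate 1 (0.99), or E18.5 replicates 1 and 2 (0.97). Col4a1 rose among 19 collagen, laminin and integrin genes (1.08), Cdh6 fell among 20 cadherin and contactin genes (-1.06), and Ndnf rose among 10 Cajal-Retzius neuron genes (1.19). Col4a1 was lost without E16.5 replicate 1 (0.91, limma adjusted p = 0.0951), E18.5 replicate 1 (1.01, limma adjusted p = 0.0749), E18.5 replicate 3 (0.94, limma adjusted p = 0.0838) or E18.5 replicates 1 and 2 (1.36, limma adjusted p = 0.0909). Ndnf was lost without E18.5 replicate 3 (0.94) and Cdh6 without E18.5 replicates 1 and 2 (-1.11, limma adjusted p = 0.0808). No member was called among 20 glycolysis genes (median 0.19), 18 cholesterol synthesis genes (0.00, with a sign that turns under another scaling), 18 genes of the integrated stress and unfolded protein responses (-0.03), 20 chromatin factors (-0.17), 4 nuclear factor I genes (0.02) or 13 mitochondrially encoded genes (-0.22). At a limma adjusted p under 0.05 with no minimum size these 6 lists held 6, 3, 1, 6, 0 and 0 genes.

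The E17.5 libraries lay on the same side of the E16.5 mean as the E18.5 libraries in 232 of the 244 called genes (95.08%), 170 of 181 rises and 62 of 63 falls. In 191 of them the E17.5 mean fell between the other stages and in 41 it passed the E18.5 mean. Since the check shares the E16.5 libraries with the comparison, it is not independent of it. The 12 genes on the opposite side were Anxa2, Bst2, C1qb, Folr1, Gucy1a3, Igfbp7, Kif5c, Npy, Ptgds, Rgs5, Sparc and Ttr. Kif5c, a kinesin heavy chain of neurons, was the 1 fall among them, at 303, 336 and 334 TPM at E16.5, 376 and 396 TPM at E17.5, and 148, 129 and 159 TPM at E18.5. Its E17.5 libraries were the highest of all 8 and its E18.5 libraries the lowest. Sparc, a matrix protein, was at 7.17, 6.97 and 11.4 TPM, then 5.10 and 7.01 TPM, then 32.8, 16.1 and 27.9 TPM. Many of the 12 are markers of vessel, choroid plexus or microglial cells, and the part of such cells was not tested. Without E18.5 replicates 1 and 2, Ptgds (1.78, limma adjusted p = 0.115), Folr1 (1.10, limma adjusted p = 0.189), Anxa2 (1.45, limma adjusted p = 0.143), Igfbp7 (1.41, limma adjusted p = 0.125) and Gucy1a3 (0.86, limma adjusted p = 0.458) were not called. Each of these 5 was also lost with 2 or more of the 6 libraries left out singly, at 1.10 to 1.44 for Ptgds, 0.58 to 1.15 for Folr1, 0.91 to 1.20 for Anxa2, 1.01 to 1.06 for Igfbp7 and 0.83 to 1.11 for Gucy1a3 in those fits.

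**Figure D4:**
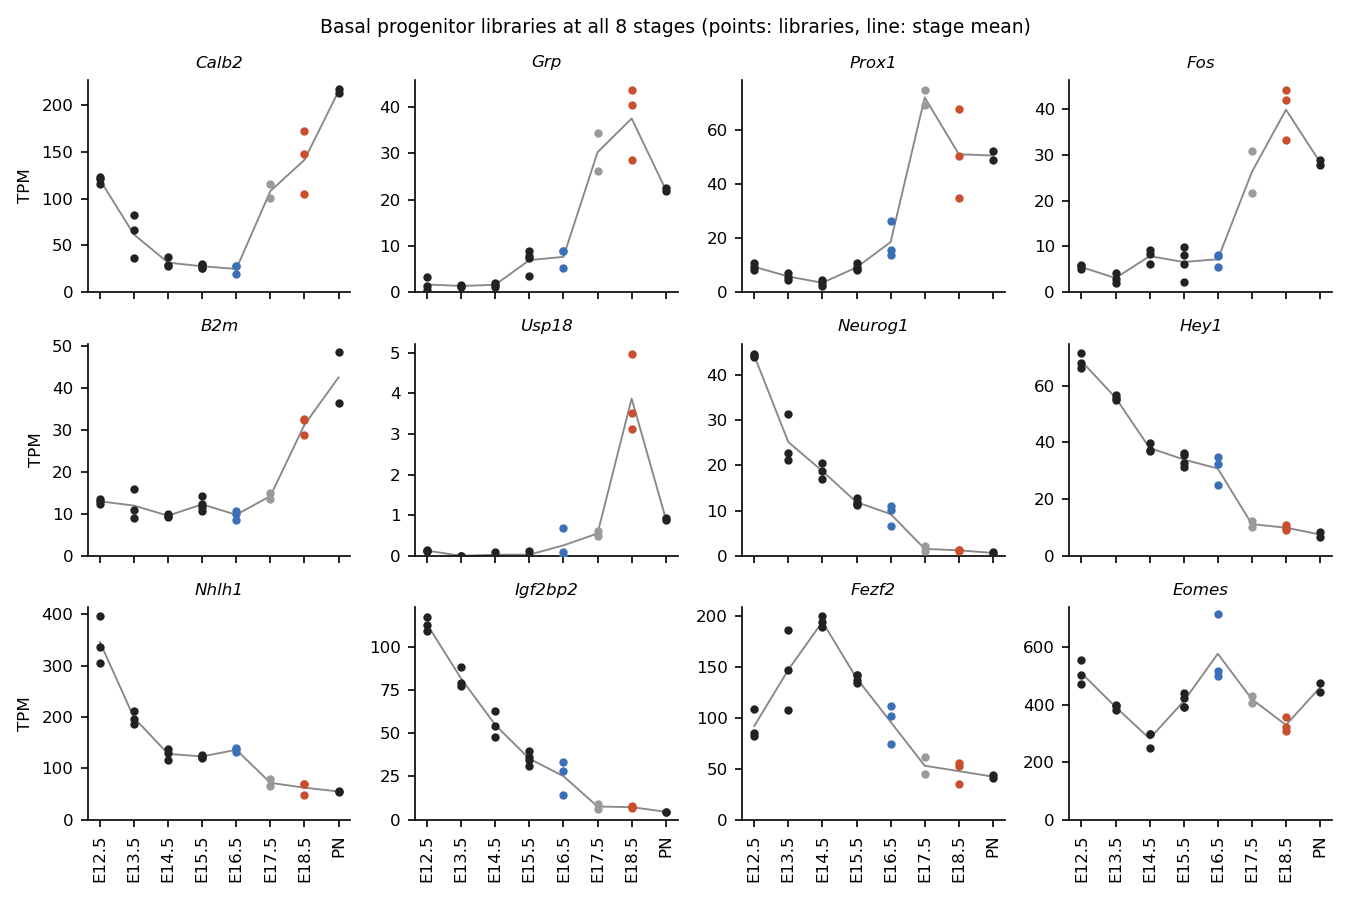
TPM of 12 genes in all 23 BP libraries by stage, each panel with its own axis from 0; points are libraries and lines join stage means. Stage means of Neurog1, Hey1 and Igf2bp2 decline from E12.5 on, with a step between E16.5 and E17.5, Usp18 is high at E18.5 alone, and Calb2 is low from E14.5 to E16.5 between higher values.

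Across all 8 BP stages these genes differed in when they moved. Neurog1 had stage means of 44.2 TPM at E12.5, 25.1, 18.7, 11.9 and 9.24 TPM up to E16.5, then 1.55, 1.23 and 0.662 TPM at E17.5, E18.5 and PN. The means of Hey1 went from 68.7 TPM at E12.5 to 30.8 TPM at E16.5 and 7.55 TPM at PN, and those of Igf2bp2 from 113 to 25.2 and 4.54 TPM. For all 3 the fall between E16.5 and E18.5 continued an earlier decline. Calb2 was at 120 TPM at E12.5, 24.9 TPM at E16.5 and 215 TPM at PN. Fezf2 peaked at 195 TPM at E14.5, ahead of the comparison. Eomes showed no steady course, at 510, 282, 578, 329 and 460 TPM at E12.5, E14.5, E16.5, E18.5 and PN.

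At PN the interferon-regulated genes lay on both sides of their E18.5 means. Usp18 was at 0.919 TPM at PN (n = 2) after 3.87 ± 0.972 TPM at E18.5 (SD, n = 3), and Igtp at 0.425 after 1.76 TPM. B2m stood at 42.4 TPM at PN after 31.2 ± 2.17 TPM, Ifitm3 at 8.46 after 5.55 TPM and H2-K1 at 15.7 after 8.42 TPM. These PN values are a description of 2 libraries and were not tested.

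The same interval was then compared with newborn neurons, sorted from the same reporter line. The changes from E16.5 to E18.5 differed between BP and NBN by the limma interaction term in 202 of 13965 genes (1.45%), 166 with BP higher (1.19%) and 36 with BP lower (0.258%). Whether BP and NBN libraries came from the same animals is not recorded. Of the BP rises, 154 of 181 had the same sign in NBN and 40 were called there in that direction. For the falls these counts were 54 of 63 and 19. No share over all genes stands beside these counts, so they only describe the called genes. The interaction itself was called in 38 of the rises and 15 of the falls. The count of BP-higher genes was 108 without NBN E16.5 replicate 3, and the count of BP-lower genes 19 without BP E18.5 replicates 1 and 2.

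The 5 largest differences with BP higher all involved a fall in NBN. Npy moved by 1.81 in BP and by -1.81 in NBN, from 47.7 to 13.1 TPM there, a difference of 3.62 (limma adjusted p = 0.000706). Igfbp3, which binds insulin-like growth factors, went from 83.3 to 11.3 TPM in NBN and from 2.94 to 4.17 TPM in BP (3.25). The kainate receptor subunit Grik3 (3.23), the heparan sulfotransferase Hs3st4 (3.13) and the adhesion molecule Kirrel3 (2.76) were alike, with BP means under 6 TPM at both stages. Fezf2 and Sox5 went the same way in both cell types but further in NBN: Fezf2 moved by -2.81 there, from 178 to 24.3 TPM, and Sox5 by -2.90, from 105.3 to 12.7 TPM. Their interactions were 1.80 and 1.74 (limma adjusted p = 2.15e-05 and 0.00152).

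With BP lower, the largest differences were Kif26b (-1.90), Fat1 (-1.88), Hmgn5 (-1.54), St18 (-1.54) and Nrarp (-1.51). Kif26b, a kinesin-family protein, went from 31.1 to 14.6 TPM in BP and from 15.3 to 27.8 TPM in NBN. The protocadherin-like Fat1 went from 13.9 to 8.36 TPM in BP and from 8.28 to 20.1 TPM in NBN. Hmgn5, a nucleosome-binding protein, hardly moved in BP (41.3 and 39.6 TPM) and went from 6.72 to 18.6 TPM in NBN. St18 was low in NBN, at 2.68 and 1.77 TPM. Hmgn5 was not called without BP E18.5 replicate 1 (-1.42), NBN E16.5 replicate 2 (-1.34) or NBN E16.5 replicate 3 (-1.33), nor without BP E18.5 replicates 1 and 2 (-1.54, limma adjusted p = 0.135). The last setting also ended the calls of Kif26b (-1.70) and St18 (-1.20).

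Several genes of the naming rule differed from NBN by the interaction. Lingo1 was at 116 and 97.3 TPM in NBN (interaction 1.90, limma adjusted p = 3.76e-05), and Lsamp at 25.2 and 25.4 TPM (1.64, limma adjusted p = 1.84e-05). Abracl, at 285 and 264 TPM in NBN, had an interaction of -1.19 (limma adjusted p = 4.74e-05), Kcnk1 1.16 and Iqsec1 -1.08. Usp18 was at 0.111 and 0.437 TPM in NBN (1.60, limma adjusted p = 1.87e-09). Calb2 went from 17.46 to 67.3 TPM in NBN and Grp was at 60.7 TPM in NBN at E18.5, and neither interaction was called (0.54 and -0.22). Igf2bp2 went from 25.7 to 7.78 TPM in NBN, close to its course in BP (interaction -0.02).

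**Figure D5:**
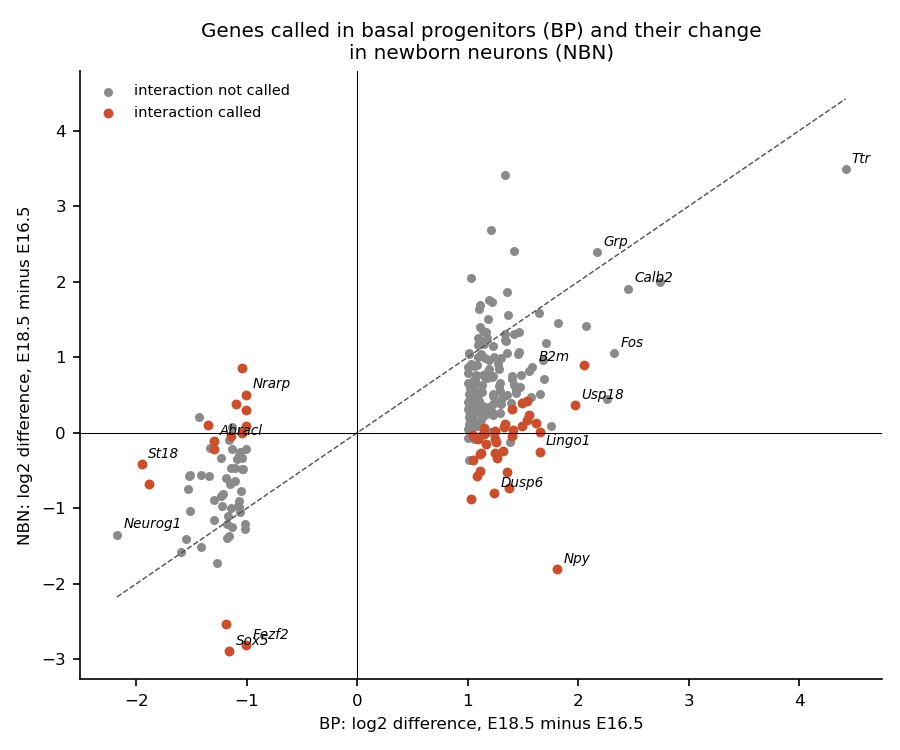
Log2 difference from E16.5 to E18.5 in NBN against that in BP for the 244 genes called in BP; red points have a called interaction, and the dashed line marks equal change. Most points share the sign in both cell types, Fezf2 and Sox5 lie below the line at -2.81 and -2.90 in NBN, and Npy lies in the opposite quadrant.

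The interval differed more from that in neural stem cells. The interaction was called in 2901 of 14504 genes, 1443 with BP higher (9.95%) and 1458 with BP lower (10.1%). Reporter line and cell type coincide here and cannot be told apart. Of the BP rises, 82 of 181 had the same sign in NSC, and 62 were called as falls there. Of the BP falls, 31 of 63 had the same sign and 9 were called as rises in NSC. These counts too lack a share over all genes and only describe the called genes. With BP higher, the largest were Cck (5.05), Calb2 (4.92), Grp (4.80), the microtubule-linked Jakmip1 (4.58) and the kinase Camk2b (4.48). In NSC, Calb2 fell from 24.7 to 3.62 TPM and Grp went from 9.37 to 0.747 TPM. With BP lower they were the protease inhibitor Serpine2 (-3.47), Hey1 (-3.21), Pla2g7 (-3.08), the water channel Aqp4 (-3.00) and Fgfbp3 (-2.95). Hey1 rose in NSC from 15.1 to 50 TPM as it fell in BP from 30.8 to 9.95 TPM.

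Of the other falls by the naming rule, Grb10 rose in NSC from 100 to 266 TPM (interaction -2.77) and Gpc4 stood there at 27.9 and 49.8 TPM (-2.24). Igf2bp2 was at 17.8 and 28.4 TPM in NSC (-2.23) and St18 at 17.1 and 29.5 TPM (-2.76). For these 4 genes the BP and NSC means moved in opposite directions. B2m rose in NSC from 11.6 to 40.5 TPM and stood at 10.5 and 20 TPM in NBN (0.87, under the minimum there), and neither interaction was called (-0.15 against NSC, 0.71 against NBN). Fos stood at 73.4 and 148 TPM in NSC, above its level in BP at both stages, and its interaction was 1.29 (limma adjusted p = 0.0436).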

How the data were processed

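RNA was sequenced from sorted cells in single-end runs of short reads from an unstranded TruSeq kit, per the labels' protocols. The deposited values are TPM per gene, which the authors made with kallisto 0.43.0; the submitters' processing notes name the builds GRCm38.p2 and mm10. TPM keep no depth, so intervals that need counts were not computed, and reads of antisense or near-identical genes cannot be told apart. Columns were mapped to samples by name. Coordinates and promoters are RefSeq's on GRCm38.p6.

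Values were analysed as log2(TPM + 1) with limma 3.58.1 in R 4.3.3: 1 mean per cell type and stage (23 groups), a spread shared by all 70 libraries (47 residual degrees of freedom) and a variance trend. Genes averaging 1 TPM or more in a compared group were tested; calls needed a Benjamini-Hochberg adjusted p under 0.05 and a difference of at least 1. The time difference between cell types was the interaction contrast. The script was tested on simulated data.

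Named genes were the 12 largest called differences each way with at least 20 TPM on the higher side, libraries that do not overlap, E17.5 on the same side and a unique, non-predicted symbol; the 5 largest interactions each way among genes averaging 20 TPM or more in any of the 4 groups; and called list members. Other names were chosen after their values were seen. Some list members are counted in their lists but not reported by name here. The stage pair, the lists and the rules were chosen with earlier results of these data known. Alternatives covered the pseudocount, filter, scaling, variance model, weights, libraries fitted, replicate numbers as blocks, a Y-linked term, the minimum size and each library left out; the fit without E18.5 replicates 1 and 2 was chosen after seeing the data.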

Additional observations from a re-analysis of the deposited data

Results flagged for a closer look

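Genes whose change from E16.5 to E18.5 differed between cell types were listed when the limma interaction passed an adjusted p of 0.05 and a difference of at least 1; values are the BP change minus the other cell type's change in log2(TPM + 1), and no explanation was weighed. Against NBN, 202 genes differed so, and against NSC, 2901.

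Against NBN, BP was higher for Npy (3.62), Igfbp3 (3.25), Grik3 (3.23), Hs3st4 (3.13), Kirrel3 (2.76), Dusp6 (2.04), Lingo1 (1.90), Gucy1a3 (1.90), Fezf2 (1.80), Sox5 (1.74), Lsamp (1.64), Robo1 (1.62), Usp18 (1.60), Cplx1 (1.39) and Kcnk1 (1.16). For Fezf2 and Sox5 both cell types went down and NBN went further. BP was lower for Kif26b (-1.90), Fat1 (-1.88), Hmgn5 (-1.54), St18 (-1.54), Nrarp (-1.51), Tmem119 (-1.48), Fzd9 (-1.45), Cdkn1a (-1.31), Abracl (-1.19) and Iqsec1 (-1.08).

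Against NSC, BP was higher for Cck (5.05), Calb2 (4.92), Grp (4.80), Jakmip1 (4.58), Camk2b (4.48), Stac2 (4.27), Fabp3 (3.66), Lingo1 (3.26), Tspan4 (1.51), Kcnk1 (1.47), Egr1 (1.43) and Fos (1.29). It was lower for Serpine2 (-3.47), Hey1 (-3.21), Pla2g7 (-3.08), Aqp4 (-3.00), Fgfbp3 (-2.95), Grb10 (-2.77), St18 (-2.76), Gpc4 (-2.24), Igf2bp2 (-2.23), Gli2 (-1.90), Boc (-1.87), Rhbdl3 (-1.78), Abracl (-1.58), Siah3 (-1.48) and Iqsec1 (-1.40).

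Among the 4 NSC libraries of E16.5, 1 stood apart for Hey1, with a gap of 0.853 of the group's range; chance marks about 1 in 20 such groups.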

How the results depend on the processing

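The counts of genes called in BP depended most on the pseudocount and the minimum size. With a pseudocount of 0.1 TPM, 346 genes rose and 123 fell, and with 5 TPM, 32 and 24. Without a minimum size, 1308 were higher and 776 lower, of which 86.1% lay on the same side at E17.5, and with a minimum of 1.5, 26 rose and 9 fell. With 1 library left out, 147 to 224 rose and 57 to 83 fell, and 188 to 223 of the 244 genes were called again. With quantile normalization 151 rose and 63 fell. Named genes that lost the call there were Anxa2, Cdkn1a, Clu, Col4a1, Etv5, Gucy1a3, H2-K1, Id1, Nrarp, Rgs5, Sgk1 and Slc17a7. With median ratio scaling Anxa2, H2-K1 and Id1 lost it. With the spread taken from the compared BP libraries alone, 184 rose and 63 fell, and 236 of the 244 were called again. Among named genes Cck, Folr1 and Igtp lost the call there (limma adjusted p = 0.0857, 0.145 and 0.0553). None of the 244 genes changed sign in any alternative run. Of 88 named genes called in BP, 15 kept the call in every alternative and 73 lost it in at least 1, mostly with the pseudocount of 5 (52) or the minimum of 1.5 (68).

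The interaction with NBN gave 79 and 10 genes with a pseudocount of 5, 108 to 187 and 28 to 47 with 1 library left out, and 126 and 19 without BP E18.5 replicates 1 and 2. The interaction with NSC gave 863 and 869 with a pseudocount of 5, and 1290 to 1585 and 1339 to 1599 with 1 library left out. Causes of these shifts were not tested.

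With the replicate block, 180 genes rose and 64 fell in BP, 158 and 36 differed from NBN, and 1470 and 1463 from NSC. Of the named calls in BP, only Anxa2 was lost there (1.09, limma adjusted p = 0.0549). Same-numbered E16.5 and E18.5 libraries deviated from their group means with correlations of -0.04, -0.18 and 0.09 across genes. Differently numbered libraries gave -0.23 to 0.25. With 3 libraries a stage this cannot settle whether the numbers pair the samples. Depth is unknown, and 3 libraries a stage limit the precision of each value.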
